A study of Allium sativum with 84 samples.

Results

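Asa6G01110.1 is the garlic gene that the study names as the ortholog of BEL5 of potato. It was chosen by its gene ID as 1 gene of the 57561 in the table, and its level was described over all accessions, by collection site and beside the genes most correlated with it. Its transcript was measured by RNA sequencing in enlarging bulbs of 84 garlic (Allium sativum) accessions, with 1 library per accession. All plants grew untreated on 1 farm in JinXiang, Shandong, and were sampled in April at the enlarging growth of the bulb, per the labels from 3 bulbs of each accession. The study's text differs from the labels in the numbers of plants and accessions, and 1 source name, Chalingzipisuan, stands on every library, so the libraries count here as separate accessions by their titles and collection sites only. The 16 accessions from other countries came from 11 countries (Canada 5, Greece 2, the others 1 each, with spellings such as Amrica and Eygpt in the labels), and 68 came from China. Sites with at least 4 accessions were Xinjiang (9), Canada (5), Shanxi (6), Hebei (4), Henan (4) and Shandong (15). An accession is called here by its site and a number that only names it. A whole bulb holds several tissues, so fewer cells of a type and less RNA per cell cannot be told apart. The files pair no garlic gene ID with a tissue marker, so the tissue label was not checked against markers.

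BEL1-like proteins are homeodomain transcription factors that act in pairs with KNOX homeodomain proteins. In potato, BEL5 mRNA is made in leaves, moves through the phloem to stolons under short days and promotes tuber formation. There, the BEL5 protein with its KNOX partner acts on gibberellin metabolism genes, among them a GA 20-oxidase gene, and on SP6A, an FT-like gene. These roles are known from potato and were not tested in garlic here. A bulb library measures the transcript present in the bulb, wherever it was made.

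The BEL5 ortholog was expressed in the bulb of every accession, at a level that differed 16.3-fold between the extremes. Its median was 111.8 FPKM (fragment counts divided by gene length and by a library total), with quartiles at 72.0 and 143.97 FPKM and a range of 18.3 to 297.7 FPKM. The mean was 112.1 ± 52.8 FPKM (SD, n = 84), a coefficient of variation (CV) of 47.1%. Recovered as whole reads, the gene had 488 to 12516 reads per library (median 2964), so the counting error was 0.894 to 4.53% of a value. Variation between libraries or plants of 1 accession was not measured, since each accession has 1 library. Within a library the gene ranked between 571 and 8369 among all genes by FPKM (median rank 1631, the upper 4.93% of the genes detected).

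The values formed 1 continuous distribution with a tail to the low side. Between 50 and 200 FPKM lay 70 accessions, 10 lay below 50 FPKM and 4 above 200 FPKM. Skewness was -1 on the log2(FPKM + 1) scale and 0.47 in FPKM. The widest gap between neighbours in the order was from 19.97 to 26.9 FPKM, near the low end. Among 3215 genes with a mean of 50 to 200 FPKM the median CV was 35.1%, and 66% of them had a lower CV than the BEL5 ortholog. The diversity index, which is the Shannon entropy over 10 intervals of 0.5 SD, was 2.94, against a median of 2.26 over 47415 genes with any expression. It was below that of the BEL5 ortholog for 95.9% of these genes. The index scales each gene by its own SD, so it gives how evenly values fill the intervals, not how far they vary. These genes were also not matched by level, unlike those of the CV.

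**Figure D1:**
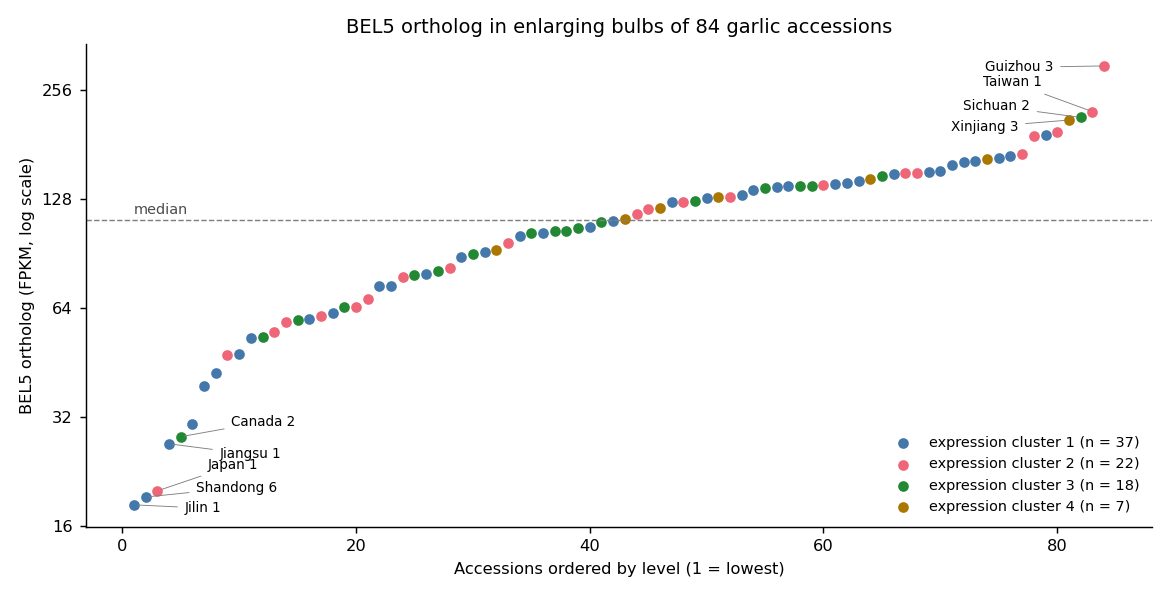
Level of the BEL5 ortholog in each of the 84 accessions (FPKM, log scale), ordered from the lowest to the highest and coloured by expression cluster, with the median of 111.8 FPKM as a dashed line. The low tail leads down to 18.3 FPKM, the top accession stands at 297.7 FPKM, and clusters 1, 2 and 3 appear across most of the range.

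The lowest levels came from several provinces of China, Japan and Canada. Jilin 1 had 18.3 FPKM, Shandong 6 had 19.2 FPKM and Japan 1 had 19.97 FPKM. Jiangsu 1 followed with 26.9 FPKM, Canada 2 with 28.2 FPKM and Shandong 7 with 30.6 FPKM. The gene was read from 605 reads in Jilin 1, 570 in Shandong 6 and 488 in Japan 1, so these low values did not rest on few reads. Of the 10 accessions below 50 FPKM, 2 came from other countries and 8 from China.

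At the other end stood Guizhou 3 with 297.7 FPKM from 12516 reads. Taiwan 1 had 222.7 FPKM, Sichuan 2 had 214.6 FPKM and Xinjiang 3 had 211.0 FPKM. Hebei 1 (195.98 FPKM), Shandong 14 (191.5 FPKM) and Guizhou 2 (191.1 FPKM) came next. After median-ratio scaling of the libraries, the 5 highest accessions were the same 5, and 4 of the 5 lowest were the same.

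Some small sites held values far apart. Guizhou had 55.0, 191.1 and 297.7 FPKM, Sichuan had 47.5, 139.6 and 214.6 FPKM, Jiangsu had 26.9 and 152.6 FPKM, and Jilin had 18.3 and 91.5 FPKM. In contrast, the accessions of Yunan had 128.3 and 129.6 FPKM, those of Greece 129.2 and 164.9 FPKM and those of Gansu 59.2, 103.1 and 104.5 FPKM. These sites hold 2 or 3 accessions each and were not tested.

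The first comparison asked whether the level differed between accessions from other countries and from China. Accessions from other countries had 19.97 to 165.6 FPKM (median 110.9), against 18.3 to 297.7 FPKM (median 111.8) in those from China, so the groups overlapped widely. Means were 103.9 ± 45.9 FPKM in other countries (SD, n = 16) and 113.97 ± 54.5 FPKM in China (SD, n = 68). On log2(FPKM + 1) values, limma gave a change of -0.14 ± 0.23 (SE, 95% interval -0.59 to 0.31, adjusted p = 0.81). In the same fit 3.67% of 36007 genes passed the threshold of 0.05, and the BEL5 ortholog did not. Without Japan 1 the change was 0.0063. Of the 12 other genes of the study's text for bulb growth that could be tested, 1 was higher and 0 were lower by limma, and 2 had an unadjusted p under 0.05, as did 18.1% of all genes.

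The order of the columns in the deposited table bore on this comparison, since earlier results of these data showed expression shifting after column 23. What that order stands for is not given in the labels. Among columns 1 to 23, accessions from other countries had 78.01 ± 45.1 FPKM (SD, n = 7) and those from China 125.3 ± 47.95 FPKM (SD, n = 16). Among columns 24 to 84 the means were 124.0 ± 37.2 FPKM in other countries (SD, n = 9) and 110.5 ± 56.3 FPKM in China (SD, n = 52). Fitted apart, the change was -0.85 ± 0.32 (SE, limma p = 0.013, adjusted p = 0.53) in columns 1 to 23, and 0.31 ± 0.29 (SE, limma adjusted p = 0.59) in columns 24 to 84. In columns 1 to 23 limma called 0 of 32446 genes after adjustment, and 2459 of the 32446 had an unadjusted p under 0.05. The difference between both changes was 1.16 ± 0.46 (SE, limma p = 0.014, adjusted p = 0.21), with an interval from 0.24 to 2.08 before adjustment, and 0.139% of genes passed this interaction test. Within columns 1 to 23 stood Japan 1 and Canada 2, both among the 5 lowest accessions.

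The second comparison set the collection sites beside each other. In the order of medians, Xinjiang had 135.6 FPKM, Canada 125.1, Shanxi 123.5, Hebei 122.5 and Henan 83.1 FPKM, against 130.7 FPKM in Shandong, which stood between Xinjiang and Canada. The values of all 6 sites overlapped, with 60.7 to 211.0 FPKM in Xinjiang and 19.2 to 191.5 FPKM in Shandong. Henan had 58.4, 77.98, 88.3 and 141.5 FPKM, and Hebei had 103.2, 106.8, 138.2 and 195.98 FPKM. Canada had 28.2, 90.2, 125.1, 125.9 and 138.9 FPKM, and Shanxi had 38.9, 62.0, 110.3, 136.6, 151.5 and 158.3 FPKM. Only Canada 2 and Shandong 5, 6 and 7 and Shanxi 1 were below 50 FPKM among these 43 accessions.

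The 6 sites accounted for 6.91% of the variance of the gene on the log2 scale. The F test across sites gave F = 0.58 (limma adjusted p = 0.96), where 0.0442% of 33913 genes passed. Against Shandong the change was 0.33 in Xinjiang (interval -0.32 to 0.99, limma adjusted p = 0.74), 0.39 in Hebei (-0.49 to 1.27, adjusted p = 1) and -0.20 in Henan (-1.08 to 0.68, adjusted p = 1). It was -0.028 in Shanxi (-0.78 to 0.73, adjusted p = 1) and -0.16 in Canada (-0.97 to 0.65, adjusted p = 0.88). Limma called 1.35% of genes in Canada and 0% in Xinjiang, Shanxi, Henan and Hebei. Before adjustment, 10.98% of genes were under 0.05 in Xinjiang, 2.46% in Shanxi, 0.537% in Henan and 1.17% in Hebei. The intervals reached 0.99 in Xinjiang, 1.27 in Hebei and -1.08 in Henan, so a change of that size was within what these accessions could not detect. Without Canada 2 the change in Canada was 0.24, and without Shanxi 1 that in Shanxi was 0.23.

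Exact two-sided permutation tests over the 15 pairs of sites gave 0 pairs past the threshold, and 0 pairs also had an unadjusted p under 0.05. The smallest unadjusted p was 0.11 for Xinjiang (mean log2 6.99, n = 9) against Henan (6.46, n = 4), and the smallest adjusted exact p was 0.92. No neighbours in the order of sites therefore passed the threshold. With as few as 4 accessions at a site, this does not show that neighbours were equal in level.

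**Figure D2:**
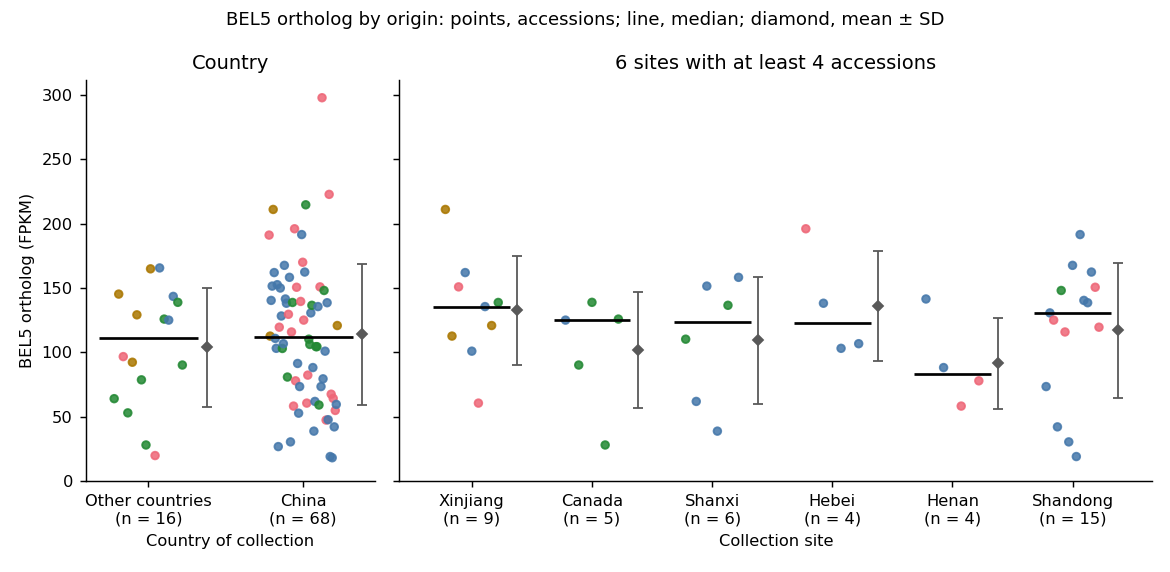
Level of the BEL5 ortholog (FPKM) by country of collection and by site, with 1 point per accession in the colour of its expression cluster (1 blue, 2 red, 3 green, 4 brown), a line at the median and a diamond with bars at the mean ± SD. Medians are 110.9 FPKM in other countries and 111.8 FPKM in China, and the ranges of all 6 sites overlap.

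To see whether the gene followed the main patterns of bulb expression, principal components and 4 Ward clusters of the accessions were computed from all tested genes other than the BEL5 ortholog. Cluster 1 held 37 accessions, 10 of them from Shandong. Cluster 2 held 22, among them all 3 from Guizhou, and cluster 3 held 18, among them 4 from Canada and 3 from Gansu. Cluster 4 held 7 accessions, namely 3 from Xinjiang, 2 from Greece and those labelled Eygpt and Israel. The clusters were made from these data and serve as description only. Cluster 3 nearly coincided with the first columns of the table, with 17 of its 18 accessions in columns 1 to 23, whereas all 37 of cluster 1, 17 of 22 of cluster 2 and 6 of 7 of cluster 4 stood in columns 24 to 84. What belongs to cluster 3 and what to this column block therefore cannot be told apart in its accessions. The block also held 5 accessions of cluster 2 and 1 of cluster 4.

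Median levels of the BEL5 ortholog were close in the clusters, with 110.9 FPKM in cluster 1, 117.8 in cluster 2, 104.5 in cluster 3 and 129.2 in cluster 4. The range was 18.3 to 191.5 FPKM in cluster 1, 19.97 to 297.7 in cluster 2, 28.2 to 214.6 in cluster 3 and 92.4 to 211.0 in cluster 4. The clusters accounted for 3.63% of its log2 variance, so nearly all of the variation lay within them.

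The sign of each component was set so that its r with the BEL5 ortholog over all accessions was positive. Only the size of that r is therefore informative. The level of the gene tracked the second principal component, which held 13.4% of the variance of expression. Pearson's r with it was 0.83 and Spearman's rho 0.84 over 84 accessions, and r was 0.81 without Jilin 1 and Shandong 6, the accessions farthest from the median. Among 28426 genes with a mean of at least 1 FPKM and a value above 0 in at least 42 accessions, 99.5% had a smaller absolute r with this component. Within clusters r was 0.91 in cluster 1, 0.89 in cluster 2, 0.56 in cluster 3 and 0.58 in cluster 4. Jilin 1, Jiangsu 1, Japan 1 and Shandong 6 were the 4 lowest accessions of both the component and the gene. Canada 2 did not share this place, with 28.2 FPKM at rank 49 of the component from the top.

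With the first component, which held 27.2% of the variance and set clusters 1 and 2 apart, r was 0.25 over all accessions. Inside cluster 1 it was 0.54 and inside cluster 2 it was 0.80. The gene thus varied within both clusters rather than between them. Its r with the third component was 0.076.

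**Figure D3:**
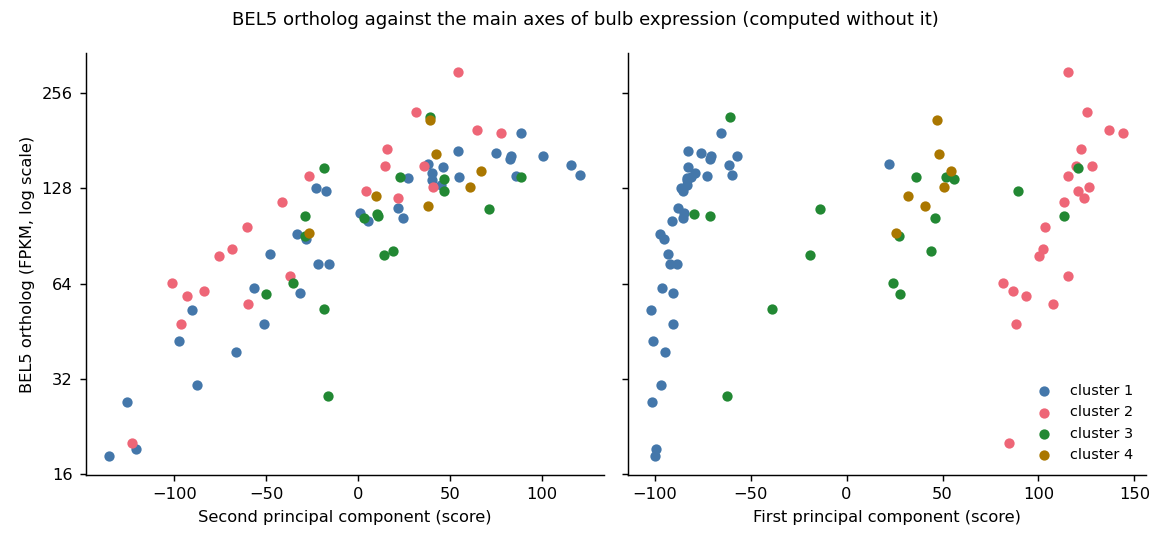
BEL5 ortholog (FPKM, log scale) against the scores of the second (left) and first (right) principal components, 1 point per accession coloured by cluster. Component signs were set so that r over all accessions is positive. On the left the clusters share 1 rising band (r = 0.83), with Canada 2 low at 28.2 FPKM near the middle of the axis, and on the right clusters 1 and 2 form separate steep columns (r = 0.25 over all).

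Properties of the libraries also moved with the gene. Its r was -0.50 with the sum of FPKM of the library, 0.46 with the median-ratio size factor and 0.27 with the number of genes detected, against -0.045 with relative depth. After median-ratio scaling the gene still ran from 20.3 to 318.2 FPKM with a CV of 46.6%.

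Many bulb genes followed the BEL5 ortholog. Over 84 accessions 5059 of the 28426 genes (17.8%) had an absolute r of at least 0.5 with it, 3432 positive and 1627 negative. In 0.461% of genes r was 0.8 or more, and in 7 genes it was -0.8 or less. The median r over all genes was 0.12, and 0.040 after median-ratio scaling, where 2315 genes were at 0.5 or more and 2354 at -0.5 or less. The balance of positive and negative genes therefore moved with the scaling. When each accession was centred on the mean of its cluster, 22.8% of genes had an absolute r of at least 0.5. Of the 5059 genes, 80.1% also had an absolute r of at least 0.5 with the second component, against 20.3% of all genes. The BEL5 ortholog itself had r = 0.83 with this component, so the higher share follows in part from how the 5059 genes were chosen. These correlations share libraries, depth and scaling, and carry no p-value.

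The gene closest in pattern was Asa3G03613.1, with r = 0.91 (rho = 0.80). It had 24.2 FPKM in Jilin 1, 40.4 in Shandong 6, 47.0 in Japan 1, 94.0 in Jiangsu 1 and 49.1 in Canada 2, all far below its median of 406.5 FPKM. In the highest accessions of the BEL5 ortholog it had 735.8 FPKM in Guizhou 3, 346.1 in Taiwan 1, 818.8 in Sichuan 2 and 875.6 in Xinjiang 3. Its r was 0.95 in cluster 1, 0.95 in cluster 2, 0.85 in cluster 3 and 0.94 in cluster 4.

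Next in order were Asa3G01214.1 (r = 0.91), Asa2G06112.1 (0.90), Asa6G02722.1 (0.90) and Asa8G05216.1 (0.895). Asa5G04103.1, Asa5G01394.1, Asa1G02750.1, Asa8G05786.1 and Asa2G06838.1 completed the 10 highest, with r of 0.88 to 0.89. These 10 genes ranged from a mean of 14.2 to one of 390.7 FPKM, and their r pooled after centring on cluster means was 0.89 to 0.93. In single clusters it was 0.895 to 0.96 in cluster 1, 0.85 to 0.95 in cluster 2, 0.61 to 0.895 in cluster 3 and 0.495 to 0.94 in cluster 4. In Jilin 1, the lowest accession, Asa3G01214.1 lay near the BEL5 ortholog in level, at 15.7 FPKM against 18.3 FPKM. In Guizhou 3, the highest, it lay far below, at 146.1 FPKM against 297.7 FPKM. Without Jilin 1 and Shandong 6 the 10 genes kept r of 0.85 to 0.89, and after median-ratio scaling 0.86 to 0.90. The sources used here give no name or function for these IDs.

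In the opposite direction the lowest r belonged to Asa2G01908.1 (r = -0.82, rho = -0.87). It had 23.3 FPKM in Jilin 1, 21.2 in Shandong 6, 16.7 in Japan 1 and 22.9 in Jiangsu 1. In Guizhou 3 it had 0.092 FPKM, in Taiwan 1 0.98, in Sichuan 2 1.60 and in Xinjiang 3 0.67. Here, too, Canada 2 stood apart, with 6.32 FPKM beside its low BEL5 level. Asa0G01482.1 (r = -0.82), Asa7G06798.1 (-0.82), Asa6G05429.1 (-0.81) and Asa2G01872.1 (-0.81) followed. Asa5G02405.1, Asa2G03847.1, Asa0G03399.1, Asa3G03608.1 and Asa5G03512.1 had r of -0.81 to -0.79. The r of these 10 genes was -0.92 to -0.86 in cluster 1 and -0.88 to -0.82 in cluster 2. It was -0.70 to -0.23 in cluster 3 and -0.78 to -0.031 in cluster 4.

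The genes closest to the BEL5 ortholog in cluster 1 or 2 also followed it in the accessions of the other. The 100 genes of highest r in cluster 1 were all positive in cluster 2, with a median r of 0.85, against a median of 0.20 over all genes there, of which 63.5% were positive. In the other direction, the 100 highest of cluster 2 had a median r of 0.86 in cluster 1, against 0.21 over all genes. The 100 lowest of cluster 1 had a median r of -0.74 in cluster 2, and all 100 were negative. In cluster 3 the 100 highest of cluster 1 had a median r of 0.52, with 96 positive, against 0.11 over all genes there, of which 63.3% were positive. The 100 lowest of cluster 1 had a median r of -0.37 in cluster 3, with 20 at -0.5 or less. Those of cluster 2 had -0.27 there, with 83 negative. Over all genes in cluster 3, 471 of 28426 were at -0.5 or less. In cluster 4 the 100 highest of cluster 1 had a median r of 0.47, with 84 positive, and 73 of 99 of its lowest were negative. Over all genes in cluster 4 the median r was 0.042, and 52.8% were positive. Lists chosen in cluster 4 carried over least on the negative side. For its 100 lowest the median r was -0.10 in cluster 1 and -0.056 in cluster 3, against 0.21 and 0.11 over all genes. The lists themselves shared a part of their genes, each list of clusters 1 to 3 holding 100 of 28116 to 28426 genes. Of the 100 highest, 19 were common to clusters 1 and 2, 11 to clusters 1 and 3 and 14 to clusters 2 and 3, and of the 100 lowest 15, 11 and 5 in the same order.

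Within clusters, the closest genes were Asa6G05347.1 (r = 0.96), Asa6G02722.1 (0.96) and Asa3G01214.1 (0.96) in cluster 1. In cluster 2 they were Asa5G04119.1 (0.95), Asa1G04853.1 (0.95) and Asa0G00142.1 (0.95), and in cluster 3 Asa3G00947.1 (0.94), Asa1G02436.1 (0.93) and Asa3G04927.1 (0.90). Asa1G02436.1 had r = 0.53 over all accessions. The lowest were Asa8G02080.1 (-0.94), Asa5G03945.1 (-0.93) and Asa3G03899.1 (-0.93) in cluster 1, and Asa5G04129.1 (-0.92), Asa1G04007.1 (-0.91) and Asa5G05866.1 (-0.90) in cluster 2. In cluster 3 they were Asa4G05585.1 (-0.93), Asa4G00703.1 (-0.83) and Asa2G01005.1 (-0.83).

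Pooled within clusters, Asa7G01760.1 joined the 5 highest (r = 0.88 over all accessions), and Asa6G01960.1, Asa7G04299.1 and Asa4G05585.1 were among the 5 lowest (-0.74 to -0.77 over all accessions). With 7 accessions in cluster 4, 36.2% of genes had an absolute r of at least 0.5. Its closest genes, Asa2G05325.1, Asa6G00869.1 and Asa4G04145.1 (0.99, 0.99 and 0.99), had r of 0.62, 0.15 and 0.048 over all accessions. Its lowest, Asa4G00017.1, Asa6G03565.1 and Asa5G04770.1 (-0.98 each), had r of 0.19, 0.037 and -0.094 over all accessions. Such values at 7 points are therefore described only.

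Genes of the study's text for bulb growth were set beside the BEL5 ortholog next. The study picked them partly from these libraries, so they are not independent evidence. By median FPKM the BEL5 ortholog stood second among these 14 genes, below the GA 20-oxidase gene Asa0G05638.1 (1208 FPKM) and above the AXR1-like Asa2G00503.1 (40.98 FPKM). Of the 12 genes above the filter, 2 had an absolute r of at least 0.5 with it, against 17.8% of all genes, and the median r was 0.18.

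Among photoperiod genes, Asa2G04763.1, a TGA4-like bZIP transcription factor, had the highest r (0.67, rho = 0.67). It had 1.22 FPKM in Jilin 1, 2.23 in Shandong 6 and 4.76 in Japan 1, and 19.6 in Guizhou 3, 26.4 in Taiwan 1, 26.1 in Sichuan 2 and 16.9 in Xinjiang 3. The last of these was below its median of 18.7 FPKM. Its r was 0.81 in cluster 1 and 0.68 in cluster 2, but 0.25 in cluster 3, where rho was 0.51. In cluster 3, Canada 2 combined 28.2 FPKM of the BEL5 ortholog with 19.7 FPKM of this gene. Canada 5 had 90.2 FPKM of the BEL5 ortholog and 0.60 FPKM of this gene, its lowest value.

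The FT-like Asa6G06199.1, of the family of mobile signals of flowering and storage organ formation, had r = 0.56 (rho = 0.43) and 0.48 without Jilin 1 and Shandong 6. It was listed at 0 in Jilin 1 and had 0.68 FPKM in Shandong 6, 0.69 in Japan 1 and 0.61 in Canada 2. In Guizhou 3 it had 8.07 FPKM, in Taiwan 1 3.86 and in Xinjiang 3 24.9, its highest value in the table. In the clusters r was 0.60, 0.64, 0.49 and 0.33 in order. Of the 10 accessions below 50 FPKM of the BEL5 ortholog, 9 were below the median of the FT-like gene (4.17 FPKM), and Sichuan 1 was above it with 4.97 FPKM. Just above 50 FPKM, Heilongjiang 1 had 6.58 FPKM and Turkey 1 had 8.499 FPKM of the FT-like gene.

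Other photoperiod genes showed no shared pattern. The ELF4-like Asa2G00681.1, related to a clock protein of Arabidopsis, had r = 0.20, with 0.665 in cluster 1 and -0.20 in cluster 3. The CDF2 homolog Asa8G01471.1, of a family that represses flowering genes in Arabidopsis, had r = 0.096. Its r was 0.59 in cluster 2 and -0.53 in cluster 4 (n = 7). The second TGA4-like gene, Asa6G01159.1, had r = -0.084 at a median of 0.61 FPKM.

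Among gibberellin genes, Asa0G05638.1, named as a GA 20-oxidase (an enzyme commonly known for gibberellin synthesis), had r = 0.49 (rho = 0.51). It had 674.6 FPKM in Jilin 1, 746.0 in Shandong 6 and 562.8 in Jiangsu 1, but 2162 in Japan 1. Guizhou 3 had 3286 FPKM, Taiwan 1 had 2491 and Sichuan 2 had 1490 FPKM of it. Centred on cluster means r was 0.54, and in clusters 1 to 4 it was 0.66, 0.555, 0.36 and 0.77.

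The SLR1 homolog Asa2G00237.1, which encodes a DELLA repressor of gibberellin signalling, had r = 0.30. Its r was 0.52 in cluster 1 and 0.46 in cluster 2, against 0.043 in cluster 3 and -0.063 in cluster 4. Guizhou 3 and Jilin 1 had 0.71 and 0.63 FPKM of it, at opposite ends of the BEL5 ortholog. The other GA 20-oxidase gene, Asa4G02474.1, was listed at 0 in 36 accessions and reached at most 0.83 FPKM, too low to compare.

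Genes of bud outgrowth and auxin had r of at most 0.40 over all accessions. The TB1-like Asa2G00245.1, of a family that holds back buds, had r = 0.13, the YUCCA-like Asa2G02184.1, of the auxin synthesis enzymes, 0.14, and the TOPLESS-related corepressor gene Asa4G00255.1 0.036. In clusters 1 to 4 the TOPLESS-related gene had r of 0.43, 0.13, -0.10 and -0.82, the last at 7 accessions. The AXR1-like Asa2G00503.1 had r = 0.16, with 0.55 in cluster 2. The second ID printed for an AXR1-like gene, Asa2G00253.1, had r = 0.40, and 0.55, 0.61 and 0.53 in clusters 1, 2 and 3.

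**Figure D4:**
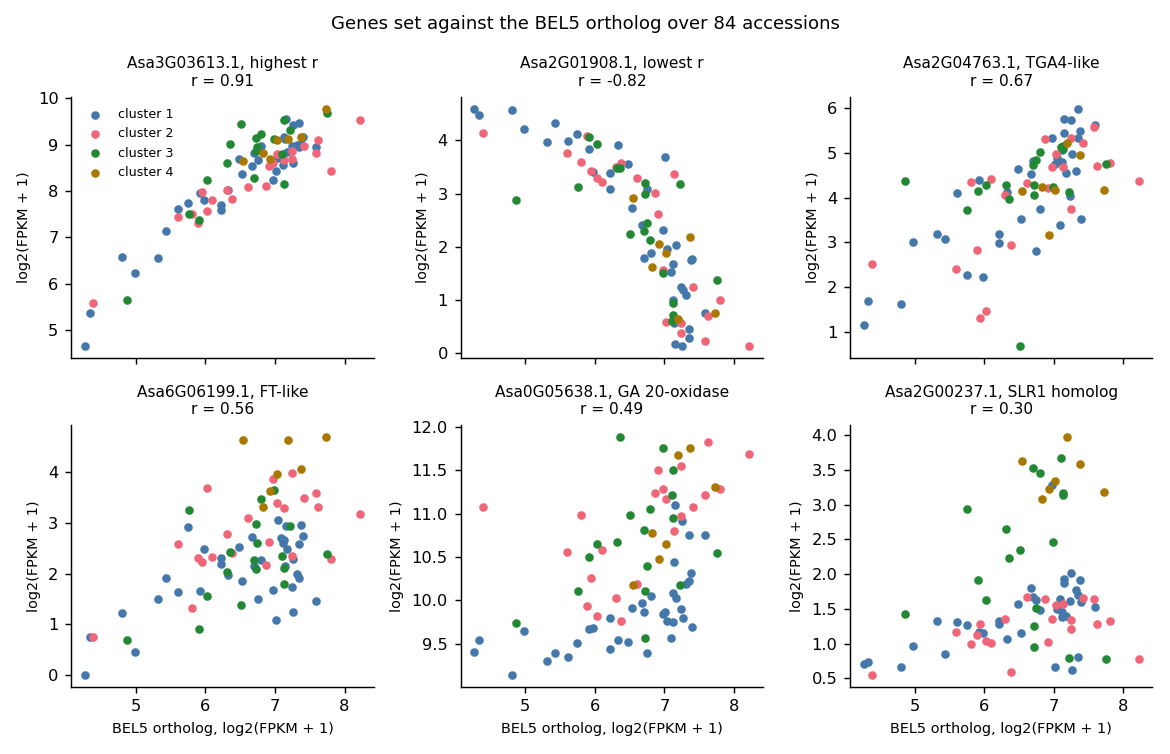
Genes set against the BEL5 ortholog, both on the log2(FPKM + 1) scale, 1 point per accession coloured by cluster. The gene of highest r (Asa3G03613.1, 0.91) and that of lowest r (Asa2G01908.1, -0.82) form single bands. The TGA4-like and FT-like genes (0.67 and 0.56) scatter more loosely, and the GA 20-oxidase gene and the SLR1 homolog (0.49 and 0.30) spread widely.

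**Figure D5:**
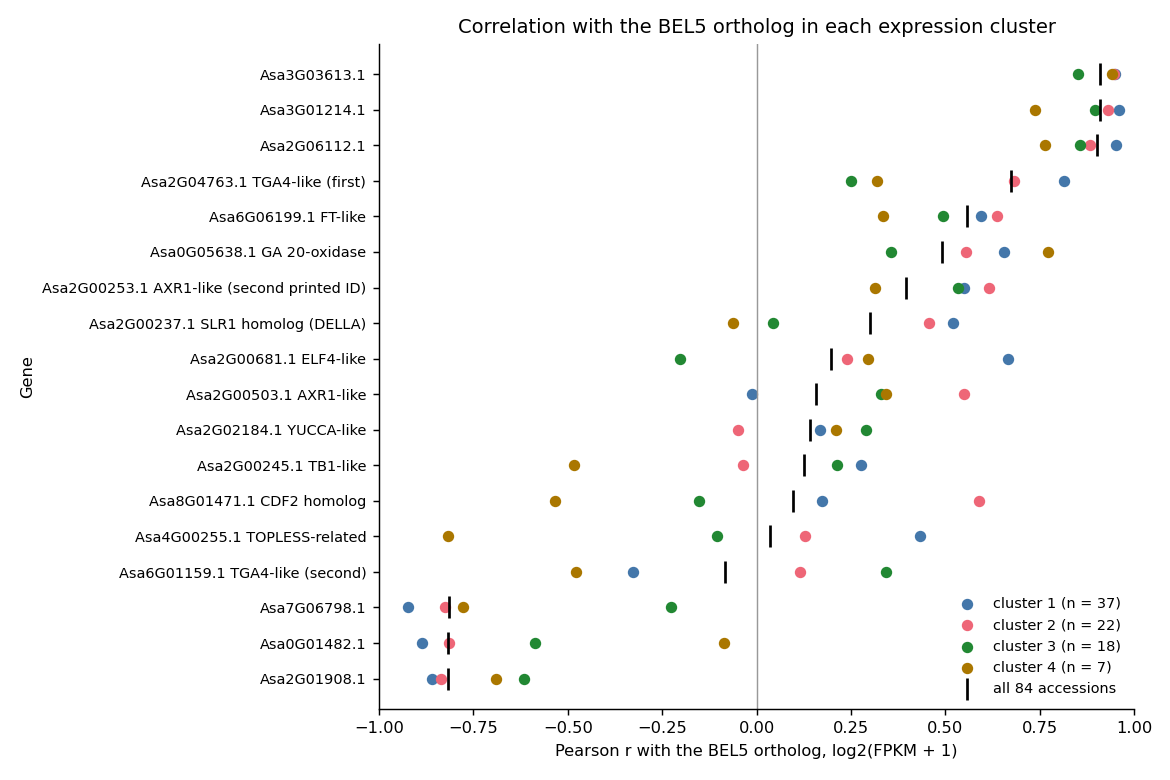
Pearson's r with the BEL5 ortholog in each of the 4 clusters (coloured points) and over all 84 accessions (black tick) for the 3 genes of highest r, the 12 genes of the study's text above the filter and the 3 genes of lowest r. The 3 highest stay between 0.74 and 0.96 in every cluster, whereas the ELF4-like gene runs from -0.20 to 0.665.

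Genes beside the BEL5 ortholog in the order of IDs on chromosome 6, as the ID gives it, did not follow it. Of the 5 on each side, 3 passed the filter, and Asa6G01105.1, Asa6G01106.1 and Asa6G01109.1 had r of 0.21, 0.23 and 0.21. Asa6G01108.1, Asa6G01113.1 and Asa6G01114.1 were listed at 0 in all 84 accessions. Asa6G01107.1 and Asa6G01111.1 were listed at 0 in 83 and 73 accessions. Asa6G01112.1 (r = -0.51) and Asa6G01115.1 (r = -0.56) ran against it at means of 0.16 and 0.16 FPKM, below the filter. Within 50 IDs on each side, 45 of 100 genes passed the filter and 8 of them (17.8%) had an absolute r of at least 0.5, the same share as over all genes.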

How the data were processed

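RNA of enlarging bulbs was sequenced in 84 accessions with 1 library each. Per the submitters' processing notes, HISAT2 2.2.1.0 served as the aligner, with the genome of garlic as reference, and the authors deposited FPKM per gene. The counting program, its use of strand and the scaling total are not given in the sources used here. Libraries detected 31485 to 36548 genes, and their relative depth, recovered from single-read steps in low genes, was 0.449 to 1.03.

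The gene and the lists were chosen with earlier results of these data known. FPKM are not counts, so log2(FPKM + 1) was fitted with limma 3.58.1 (R 4.3.3, intensity trend, two-sided) over genes that reached 1 FPKM in 4 or more fitted accessions, with Benjamini-Hochberg adjustment over all of them. On this scale changes of low genes are understated. Each replicate is another accession, so p-values measure the spread among accessions, whatever their relatedness. Reads of the BEL5 ortholog were recovered as whole numbers in all 84 libraries (largest deviation 6.38e-06), and no count model was run. Named genes were the 13 other bulb growth genes of the study's text, the 10 highest and 10 lowest by r, the 5 and 5 pooled within clusters, the 3 and 3 in each cluster, and 5 neighbours on each side. Alternatives were other pseudocounts, filters, scalings, covariates, accession weights, cluster numbers and leaving out each accession. Tests were checked on simulated data. Python 3.11.15 was used with pandas 2.3.3, NumPy 2.4.6, Matplotlib 3.10.9 and SciPy 1.17.1. The genetic groups of the study are not in the labels and were not compared.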

Additional observations from a re-analysis of the deposited data

How the results depend on the processing

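The BEL5 ortholog passed no test of country or site under any alternative run, so directions below are of changes that missed the threshold. The change in other countries against China turned positive with accession weights (0.039) and in columns 24 to 84 only (0.31), and that in Canada against Shandong turned positive after median-ratio scaling (0.049) and with relative depth as a covariate (0.015). Leaving out each accession gave -0.19 to 0.0063 for other countries, 0.17 to 0.47 for Xinjiang, -0.19 to 0.23 for Shanxi, -0.33 to 0.24 for Canada, -0.43 to -0.010 for Henan, 0.20 to 0.51 for Hebei and F of 0.44 to 0.81 across sites. With accession weights the change in Henan was -0.65 (interval -1.26 to -0.039, limma p = 0.038, adjusted p = 0.091), against -0.20 without them, and that in Xinjiang was 0.096, against 0.33. The sign turned without Japan 1 for other countries, without Canada 2 for Canada and on leaving out any 1 of 9 accessions for Shanxi. Genes called against China numbered 1323, but 4662 with accession weights, 709 on untransformed FPKM, 2712 in columns 24 to 84 and 0 in columns 1 to 23. Leaving out 1 accession took this count to between 533 (without Greece 2) and 2080 (without Thailand 1), and the 459 genes called in Canada to 1239 (without Canada 1) or to 24.2% of their number (without Canada 5). Across sites 15 genes passed, but 12434 with accession weights, 5 with quantile normalization or relative depth, 0 with column block and 1 to 29 when 1 accession was left out. Genes past an absolute r of 0.5 within clusters numbered 6482 with 4 clusters and 3255 with 5. The CV stayed within 46.2 to 47.1% under both scalings. No paired analysis was possible because each library is another accession.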
